A study of Mus musculus with 11 samples.

Results

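Fatty acid oxidation genes and targets of the nuclear receptor PPAR-alpha were followed in RNA from the small intestine of mice. The members were 32 genes taken by symbol from a list, out of 24294 symbols in the deposited table, and all 32 were found. Of these, 29 reached 1 FPKM (fragments scaled to gene length and library size) in at least 3 libraries and were tested, with 10764 genes in all. Cyp4a14, Cyp4a31 and Fgf21 did not reach that level.

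The study holds 11 libraries: 3 of a group labelled ND, 4 of HFD and 4 of HLJDD. HLJDD has the initials of the herbal preparation Huang Lian Jiedu Decoction in the series title, which concerns obese mice. The labels do not spell out ND and HFD. The sources used here do not state the diet of the HLJDD mice, the genotype, strain, age and sex, the dose and duration, or the stretch of small intestine. Whether 1 library stands for 1 mouse is not stated either, so the p-values cover library-to-library spread alone, part of which could be technical.

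Beta-oxidation shortens fatty acids in mitochondria and peroxisomes. The carnitine shuttle carries long-chain fatty acids into mitochondria, where dehydrogenases, hydratases and thiolases release acetyl-CoA, which can be turned into ketone bodies. PPAR-alpha, activated by fatty acids, drives many of these genes, and enterocytes use the programme when they absorb fat.

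Each library rested on 30101888 to 37943272 reads in genes, recovered from the FPKM values. All 10 enterocyte markers listed were tested, and their summed level was 27040 to 40190 FPKM in ND, 26980 to 36340 in HFD and 19230 to 35580 in HLJDD. Most of this sum was Fabp2 and Apoa1. Against ND, 4 markers had a log2 change above 0 and 6 below, in HFD and in HLJDD. As deposited Alpi alone was called, higher in both (limma, adjusted p under 0.05). Both calls were lost without ND replicate 1 or 2. After the median-ratio scaling described below, 2 were higher and 1 lower in both. Summed markers of smooth muscle stood at 610.4 to 847.9 FPKM in ND, 207.1 to 845.6 in HFD and 234.2 to 610.2 in HLJDD. All 8 muscle markers had a log2 change below 0 in HFD and in HLJDD against ND. None of them was called as deposited (limma, adjusted p under 0.05), and 1 was lower in HLJDD after the median-ratio scaling described below. Summed markers of hepatocytes stood at 2.498 to 4.239 FPKM in ND, 2.547 to 7.447 in HFD and 2.538 to 4.066 in HLJDD. The highest was HFD replicate 1, where Alb after scaling stood at 4.035 (0.163 to 0.382 elsewhere). The 1 hepatocyte marker tested, Ttr, was called higher than ND in HFD and HLJDD (limma, log2 change 1.05 and 1.03). Summed markers of pancreatic acinar cells stood at 3.752 to 7.712 FPKM over all libraries. The 13 mitochondrially encoded transcripts in the table took 32.4% of the reads in HFD replicate 1 and 40.7% in HLJDD replicate 2, against 10.4% to 19.3% elsewhere. The groups also differed in markers of gut region. Summed distal markers (8 genes, among them Fabp6 and Slc10a2) stood at 11760, 8301 and 1414 FPKM in ND replicates 1, 2 and 3, at 315.8 to 461.7 in HFD and at 262.5 to 473.2 in HLJDD. Summed proximal markers (8 genes, among them Fabp1 and Gata4) stood at 513.9, 2039 and 4590 in ND, 11570 to 15030 in HFD and 8736 to 15030 in HLJDD. Most of this sum was Fabp1 in each library, and the list did not move as one. Of the 6 proximal markers tested, 3 were higher and 2 lower (Slc40a1 and Slc11a2) in HFD than in ND. In HLJDD 3 were higher than in ND and 1 lower. No listed marker of either region was at 0 in all libraries. Region and group cannot be told apart here, and the part of region in the results below was not tested. In whole tissue, fewer cells of a type and less RNA per cell cannot be told apart either.

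Against ND, 7 of the 29 tested members rose in HFD and 2 fell. The 7 were Acot1, Acot2, Cyp4a10, Ucp2, Crat, Creb3l3 and Eci1, and the 2 were Vnn1 and Angptl4. Over all genes tested, 5.06% rose and 11.5% fell (limma, adjusted p under 0.05). After median-ratio scaling, which sets the typical gene equal between libraries, 11 members rose and 2 fell, beside 11.6% and 11.4% of all genes. The median log2 change of the tested members was 0.29, and 0.55 after scaling, while that of all genes was -0.205, and -0.000209 after scaling. In HLJDD against ND, 3 members rose (Acot1, Acot2 and Crat) and the same 2 fell, beside 4.1% and 7.79% of all genes. After scaling 7 rose and 1 fell, beside 8.61% and 9.18%. HFD and HLJDD share the ND libraries in these comparisons, so they are not independent. Between HLJDD and HFD, 0 of 29 members passed.

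The number of rises changed with the libraries in the fit. For the fits without 1 library, the share of all genes called is not given here. Whether the members lost or gained calls more often than other genes was not tested. In HFD against ND the count of 7 became 0 without ND replicate 1, 0 without ND replicate 2, 4 without ND replicate 3, 3 without HFD replicate 1, 1 without HFD replicate 3, 1 without HFD replicate 4, 2 without HLJDD replicate 1 and 4 without HLJDD replicate 3. It was also 1 when all libraries were scaled to equal sums (beside 2.65% of all genes), 1 with no filter on low genes (1.61%) and 12 with limma-voom on recovered reads (12.5%). The 2 falls were called in each of these fits. In HLJDD against ND the count of 3 became 0 without ND replicate 1, 0 without ND replicate 2, 1 without ND replicate 3, 1 without HLJDD replicate 1, 1 without HLJDD replicate 4, 5 without HLJDD replicate 3 and 9 without HLJDD replicate 2. It was 2 with equal sums (2.36%), 1 with no filter (1.3%) and 7 with limma-voom (9.39%). The count of 2 falls there was 1 without ND replicate 2 or ND replicate 3. Without HFD replicate 1 and HLJDD replicate 2 together, 8 members rose and 2 fell in HFD, beside 9.41% and 21.7% of all genes. In HLJDD 10 rose and 2 fell, beside 11.9% and 12%.

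**Figure D1:**
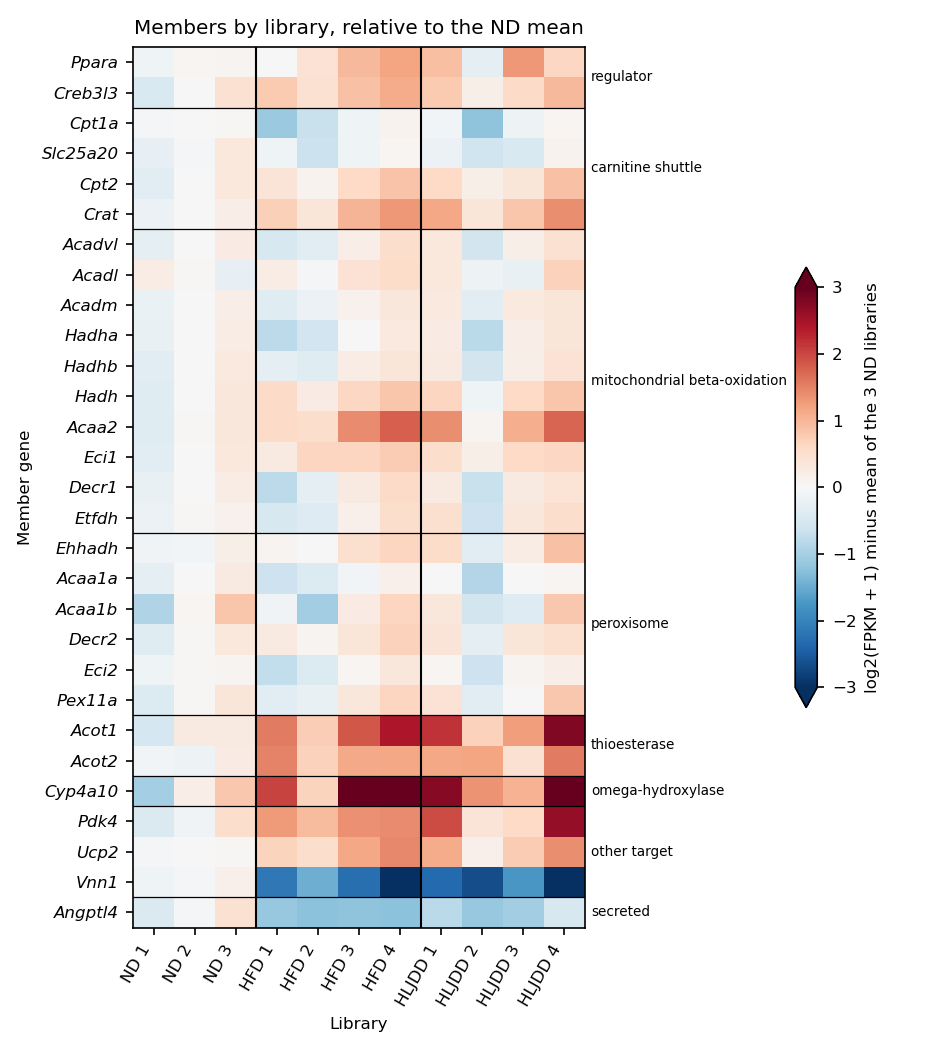
Each cell is the log2(FPKM + 1) of one of the 29 tested members in one library, minus the mean of the 3 ND libraries, with members in rows by role and colours saturating beyond 3 in either direction. The warm cells gather in the thioesterases, Cyp4a10, Pdk4, Ucp2, Crat and Acaa2 of HFD and HLJDD, the blue cells in Vnn1 and Angptl4, and most rows of the mitochondrial and peroxisomal cycles are pale.

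The receptor gene itself, Ppara (chromosome 15, 85734910 to 85806851, mm10), was read at 3.79, 4.47 and 4.51 FPKM in ND, 4.24, 6.11, 9.35 and 10.9 in HFD, and 8.89, 3.33, 11.9 and 7.07 in HLJDD. HFD replicate 1 and HLJDD replicate 2 lay within or below the ND range and the other 6 libraries of these groups above it. The change was not called in HFD (log2 change 0.65, SE 0.34, adjusted p = 0.182) or HLJDD (log2 change 0.64, SE 0.34, adjusted p = 0.241). After scaling the groups did not overlap and HFD was called (0.86, adjusted p = 0.0388), with HLJDD at adjusted p = 0.0653.

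Creb3l3 encodes a membrane-bound transcription factor of liver and gut that works with PPAR-alpha in lipid metabolism (chromosome 10, 81084329 to 81098872). It was read at 134, 184 and 253 FPKM in ND, 317, 253, 338 and 398 in HFD, and 318, 207, 276 and 365 in HLJDD. ND replicate 3 reached the lowest HFD library, and HLJDD replicate 2 lay inside the ND range. It rose in HFD (log2 change 0.80, SE 0.25, adjusted p = 0.0441) and was not called in HLJDD (log2 change 0.63, SE 0.25, adjusted p = 0.118).

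PPAR-alpha binds DNA with its partner RXR at a direct repeat of AGGTCA half-sites parted by 1 base, written AGGTCANAGGTCA. This motif was searched on both strands, with up to 2 mismatches over its 12 fixed bases, in RefSeq promoter windows of GRCm38.p6 that run from 250 bases before to 50 after a start. The windows of 24 of the 32 members were in the table. Acaa2, Angptl4, Crat, Cyp4a10, Cyp4a14, Cyp4a31, Decr1 and Vnn1 had none there and were not searched. Both falling members, Vnn1 and Angptl4, are among these. Sites outside the windows were not searched for any gene. Of the 24 searched, 2 held a match, Creb3l3 and Slc25a20 (8.33%), and 4.4% of all 27025 genes did. With at most 1 mismatch, 0 of the 24 and 0.644% of all genes matched. The 2 windows are shown because they hold the only matches among the member windows searched, with the match in capitals, 5′ to 3′ on the gene's strand. The Creb3l3 window belongs to the more downstream of its 2 listed starts, and its match begins 209 bases upstream of that start. The match of Slc25a20 begins 6 bases downstream of its start.
Creb3l3 (chr10:81092542-81092841, minus strand): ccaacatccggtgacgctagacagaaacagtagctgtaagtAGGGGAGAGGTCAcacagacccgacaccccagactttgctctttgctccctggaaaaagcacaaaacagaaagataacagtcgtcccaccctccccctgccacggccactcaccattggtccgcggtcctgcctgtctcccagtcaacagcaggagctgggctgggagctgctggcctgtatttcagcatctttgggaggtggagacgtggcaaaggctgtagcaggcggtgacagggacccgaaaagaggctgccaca
Slc25a20 (chr9:108661886-108662185, plus strand): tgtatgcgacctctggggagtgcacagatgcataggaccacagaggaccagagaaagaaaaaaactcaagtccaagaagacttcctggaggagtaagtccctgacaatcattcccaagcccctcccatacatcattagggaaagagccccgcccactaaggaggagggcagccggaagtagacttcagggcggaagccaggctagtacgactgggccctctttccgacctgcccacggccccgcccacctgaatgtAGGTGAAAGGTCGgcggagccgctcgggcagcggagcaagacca

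Of the 4 genes of the carnitine shuttle 1, Crat, passed in HFD and in HLJDD. Cpt1a, the outer membrane transferase that commits long-chain fatty acids to oxidation (chromosome 19, 3322326 to 3385735), was read at 28.9, 30.8 and 31.3 FPKM in ND, 13.5, 18.6, 27.6 and 32.6 in HFD, and 28.6, 12.6, 27.1 and 31.7 in HLJDD. ND was tight, and the lowest values were again HFD replicate 1 and HLJDD replicate 2. As deposited, 69.0% of all genes were lowest in HFD replicate 1 within HFD, and 77.9% in HLJDD replicate 2 within HLJDD. After scaling Cpt1a stood at 17.8 in HFD replicate 1 and 17.7 in HFD replicate 2. It was not called in HFD (log2 change -0.45, SE 0.32, adjusted p = 0.304, 95% interval -1.15 to 0.24) or HLJDD (log2 change -0.34, SE 0.32, adjusted p = 0.502). Slc25a20, the carrier that swaps acylcarnitine for carnitine, ranged from 64.5 to 125.5 FPKM over the 11 libraries and was not called. Cpt2, the inner membrane transferase, stood at 42.8 ± 9.82 FPKM (mean ± SD, here and below, n = 3) in ND and 60.3 ± 13.3 (n = 4) in HFD, and was not called (log2 change 0.49, SE 0.22, adjusted p = 0.133).

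Crat encodes carnitine acetyltransferase, which buffers acetyl-CoA as acetylcarnitine (chromosome 2, 30400476 to 30416017). Its values were 15.04, 16.9 and 19.8 FPKM in ND, 28.96, 22.4, 35.95 and 43.5 in HFD, and 39.3, 22.3, 31.3 and 46.7 in HLJDD. Every HFD and HLJDD library lay above every ND library. Crat rose in HFD (log2 change 0.85, SE 0.26, adjusted p = 0.0418) and in HLJDD (log2 change 0.93, SE 0.26, adjusted p = 0.035). Over the 29 tested members, 6 had all HFD libraries above ND and 2 all below, beside 9.57% and 32.9% of all genes. For HLJDD the counts were 5 and 2, beside 8.3% and 21.3%.

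The 10 genes of the mitochondrial cycle held the most abundant member, Hadh, at a mean of 466 FPKM over all libraries. As deposited, 1 of these genes rose in HFD and none in HLJDD, and none fell. The acyl-CoA dehydrogenases and the trifunctional protein subunits did not pass. After scaling 3 of the 10 rose in HFD and 2 in HLJDD, beside 11.6% and 8.61% of all genes, and none fell. Acadvl, the very long-chain acyl-CoA dehydrogenase, stood at 107 ± 19.3 FPKM in ND, 109 ± 35.9 in HFD and 117 ± 31.9 in HLJDD. Its log2 change in HFD was -0.02 (95% interval -0.63 to 0.59), that of the medium-chain dehydrogenase Acadm was -0.02 (-0.47 to 0.44), and that of the trifunctional protein subunit Hadhb was -0.01 (-0.57 to 0.55). All 3 stood at 0.24 after scaling, at adjusted p = 0.315 to 0.487, so their sign depended on the scaling. Of Hadhb's transcript, 61.5% of all 50-base stretches also occur in the transcript of Gm13910, so its count is uncertain. Hadha, Acadl, Decr1 and Etfdh were not called as deposited in any comparison, at means of 43.0 to 198 FPKM per group.

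Of the other genes of the mitochondrial cycle, Eci1 passed in HFD as deposited and Acaa2 and Hadh after scaling. Acaa2, a thiolase that closes the mitochondrial cycle, was read at 71.5, 94.7 and 118 FPKM in ND, 139, 135, 248 and 325 in HFD, and 246, 98.4, 199 and 316 in HLJDD. All HFD libraries exceeded ND, while HLJDD replicate 2 fell inside the ND range. The change was not called as deposited (log2 change 1.08, SE 0.39, adjusted p = 0.0772 for HFD), and after scaling it was 1.33 (adjusted p = 0.0238). Hadh, the short-chain 3-hydroxyacyl-CoA dehydrogenase, stood at 353 ± 83.4 FPKM in ND, 518 ± 82.4 in HFD and 500.4 ± 127 in HLJDD (adjusted p = 0.115 and 0.205, limma). Eci1, which moves the double bond of unsaturated fatty acids (chromosome 17, 24426683 to 24439316), was read at 38.2, 49.1 and 60.9 FPKM in ND, 58.8, 77.003, 76.3 and 83.4 in HFD, and 69.8, 55.3, 73.8 and 74.7 in HLJDD. ND replicate 3 lay above the lowest library of both other groups. Eci1 rose in HFD (log2 change 0.58, SE 0.18, adjusted p = 0.049) and was not called in HLJDD (log2 change 0.48, SE 0.18, adjusted p = 0.114).

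**Figure D2:**
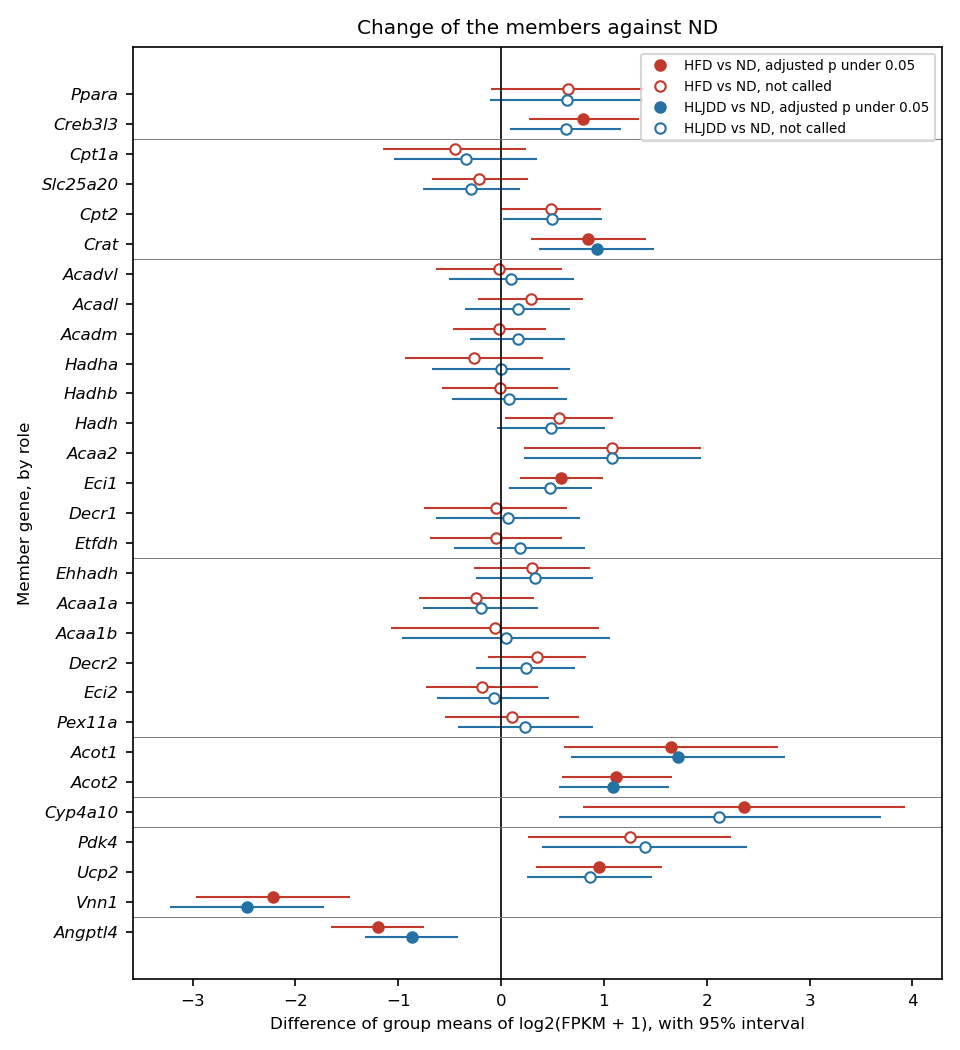
The difference of group means on the log2(FPKM + 1) scale against ND is drawn for each tested member, with the 95% interval from limma and filled points for adjusted p under 0.05. Vnn1 and Angptl4 lie left of 0 in both comparisons, the thioesterases and Crat lie right of 0 in both, and the intervals of the 6 peroxisomal genes all span 0.

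None of the 6 peroxisomal members passed in any comparison. Their log2 changes in HFD ran from -0.24 (Acaa1a) to 0.35 (Decr2), with 95% intervals that all spanned 0 and reached from -1.07 to 0.95 in all. Ehhadh, the peroxisomal bifunctional enzyme and a classical PPAR-alpha target in liver, was read at 40.9, 41.9 and 50.1 FPKM in ND, 46.6, 44.5, 62.2 and 69.2 in HFD, and 64.7, 34.5, 51.4 and 82.4 in HLJDD. The groups overlapped throughout. Acaa1b, a peroxisomal thiolase, was read at 14.3, 28.8 and 49.7 FPKM in ND, 25.4, 12.9, 32.6 and 43.8 in HFD, and 34.9, 18.4, 20.7 and 48.9 in HLJDD, so each group spanned a wide range. It shares 35.5% of the 50-base stretches of its transcript with Acaa1a, and reads may have been split between the copies. Pex11a, which acts in peroxisome division, ranged from 17.4 to 41.6 FPKM, Acaa1a from 83.9 to 188.5, Decr2 from 20.7 to 44.0 and Eci2 from 12.4 to 27.1 over the 11 libraries.

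The 2 acyl-CoA thioesterases, which release free fatty acids from CoA, rose in both groups. Acot1, the cytosolic enzyme (chromosome 12, 84009502 to 84017670), was read at 1.29, 2.98 and 3.02 FPKM in ND, 8.86, 4.54, 11.1 and 16.8 in HFD, and 14.03, 4.37, 6.88 and 21.6 in HLJDD. Acot2, the mitochondrial enzyme (chromosome 12, 83987861 to 83993877), was read at 2.15, 1.98 and 2.92 FPKM in ND, 8.29, 4.403, 6.38 and 6.49 in HFD, and 6.46, 6.57, 3.56 and 8.88 in HLJDD. For both genes all 8 libraries of HFD and HLJDD lay above all 3 of ND. Acot1 rose in HFD (log2 change 1.65, SE 0.48, adjusted p = 0.0353) and HLJDD (log2 change 1.72, SE 0.48, adjusted p = 0.0358), and so did Acot2 (log2 change 1.12, SE 0.25, adjusted p = 0.0103 and log2 change 1.09, SE 0.25, adjusted p = 0.0143). The call of Acot1 was lost in HFD with equal sums (adjusted p = 0.0513) and in HLJDD with limma-voom (0.0515). With no filter on low values it was lost in both (0.0972 and 0.0993).

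These neighbours on chromosome 12 resemble each other in the transcript (67.2% identical over the aligned length), and 23.9% of the 50-base stretches of Acot1 also occur in Acot2. Reads from such stretches may have been split or dropped. Their promoter windows, shown because both genes rose, were 45.7% identical and held no match to the motif above.
Acot1 (chr12:84009252-84009551, plus strand): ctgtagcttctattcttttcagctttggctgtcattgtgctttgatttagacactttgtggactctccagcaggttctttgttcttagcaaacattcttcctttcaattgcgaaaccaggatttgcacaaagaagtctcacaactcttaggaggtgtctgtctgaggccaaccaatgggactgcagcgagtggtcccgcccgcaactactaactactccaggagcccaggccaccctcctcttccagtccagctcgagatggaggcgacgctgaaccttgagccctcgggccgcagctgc
Acot2 (chr12:83987611-83987910, plus strand): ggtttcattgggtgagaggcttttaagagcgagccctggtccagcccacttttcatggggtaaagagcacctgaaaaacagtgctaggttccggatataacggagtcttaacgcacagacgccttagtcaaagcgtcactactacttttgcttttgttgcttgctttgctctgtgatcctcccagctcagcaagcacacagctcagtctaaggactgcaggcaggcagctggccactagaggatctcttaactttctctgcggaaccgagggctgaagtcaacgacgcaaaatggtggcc

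Of the fatty acid omega-hydroxylases, Cyp4a10 was measurable (chromosome 4, 115518287 to 115533649). It was read at 0.639, 2.799 and 4.83 FPKM in ND, 12.5, 4.27, 29.9 and 37.2 in HFD, and 20.9, 7.36, 5.82 and 33.5 in HLJDD. HFD replicate 2 fell inside the ND range, and all HLJDD libraries lay above ND. Cyp4a10 rose in HFD (log2 change 2.36, SE 0.72, adjusted p = 0.0432), the highest change of all members, and was not called in HLJDD (log2 change 2.12, SE 0.72, adjusted p = 0.0777). The call in HFD was lost with limma-voom (adjusted p = 0.08) and without HFD replicate 1 and HLJDD replicate 2 together (0.0505). Of its transcript, 25% of the 50-base stretches also occur in Cyp4a32. Cyp4a14 had reads in 3 of 11 libraries, at most 2 in one. Cyp4a31 had reads in 7 libraries, at most 9, with 0 in all of ND. A count of 0 allows up to 3 reads by counting error alone, or up to 0.0301 FPKM for Cyp4a14 and 0.0394 for Cyp4a31.

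Pdk4 encodes the kinase that turns off pyruvate dehydrogenase and so spares glucose (chromosome 6, 5483351 to 5496278). It was read at 2.64, 3.52 and 6.06 FPKM in ND, 10.8, 8.39, 11.6 and 12.1 in HFD, and 17.9, 5.42, 6.38 and 29.4 in HLJDD. HFD lay above ND without overlap, while HLJDD ran from inside the ND range to the highest value of all. It was not called in HFD (log2 change 1.25, SE 0.46, adjusted p = 0.0767) or HLJDD (log2 change 1.40, SE 0.46, adjusted p = 0.0678), and it was called in both after scaling (adjusted p = 0.0457 and 0.0453).

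Ucp2 encodes an inner mitochondrial membrane carrier (chromosome 7, 100493337 to 100499629). It was read at 146, 154 and 155 FPKM in ND, 242, 220.3, 340.3 and 413 in HFD, and 332, 170.2, 257 and 398 in HLJDD. ND was tight and all other libraries lay above it, HLJDD replicate 2 by the least. Ucp2 rose in HFD (log2 change 0.95, SE 0.28, adjusted p = 0.0389) and was not called in HLJDD (log2 change 0.86, SE 0.28, adjusted p = 0.0689), and it was called in both after scaling (adjusted p = 0.00783 and 0.0176). Immune cells also express Ucp2. The summed level of 8 immune markers was 42.1 to 66.6 FPKM in ND, 125 to 237 in HFD and 85.8 to 254 in HLJDD, and of the 5 tested none was called against ND as deposited, with 2 higher in HFD after scaling. Their part in the Ucp2 result was not tested.

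Vnn1, a pantetheinase that the gut and liver place on the cell surface and a PPAR-alpha target in liver (chromosome 10, 23894688 to 23905344), moved the other way. It was read at 253, 274 and 312 FPKM in ND, 61.8, 99.7, 57.02 and 34.2 in HFD, and 54.3, 43.4, 82.3 and 30.7 in HLJDD. Every HFD and HLJDD library lay far below every ND library. Vnn1 fell in HFD (log2 change -2.22, SE 0.34, adjusted p = 0.00166) and in HLJDD (log2 change -2.47, SE 0.34, adjusted p = 0.00122), and the call held in every alternative run.

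Angptl4, a secreted inhibitor of lipoprotein lipase and of lipase activity in the gut (chromosome 17, 33774900 to 33781575), fell as well. It was read at 12.04, 16.3 and 23.2 FPKM in ND, 7.06, 6.48, 6.66 and 6.47 in HFD, and 9.099, 6.98, 7.51 and 11.6 in HLJDD. The 4 HFD libraries lay close together and all 8 libraries lay below ND. It fell in HFD (log2 change -1.20, SE 0.21, adjusted p = 0.00287) under every alternative run. It fell in HLJDD as deposited (log2 change -0.87, SE 0.21, adjusted p = 0.0185) but not after scaling (adjusted p = 0.0691) or without ND replicate 2 (0.0707) or ND replicate 3 (0.0643). Fgf21, a hormone that PPAR-alpha induces in liver, had 1 read in each of 2 libraries and 0 in the other 9. A count of 0 allows up to 0.0836 to 0.105 FPKM for it, depending on the library.

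**Figure D3:**
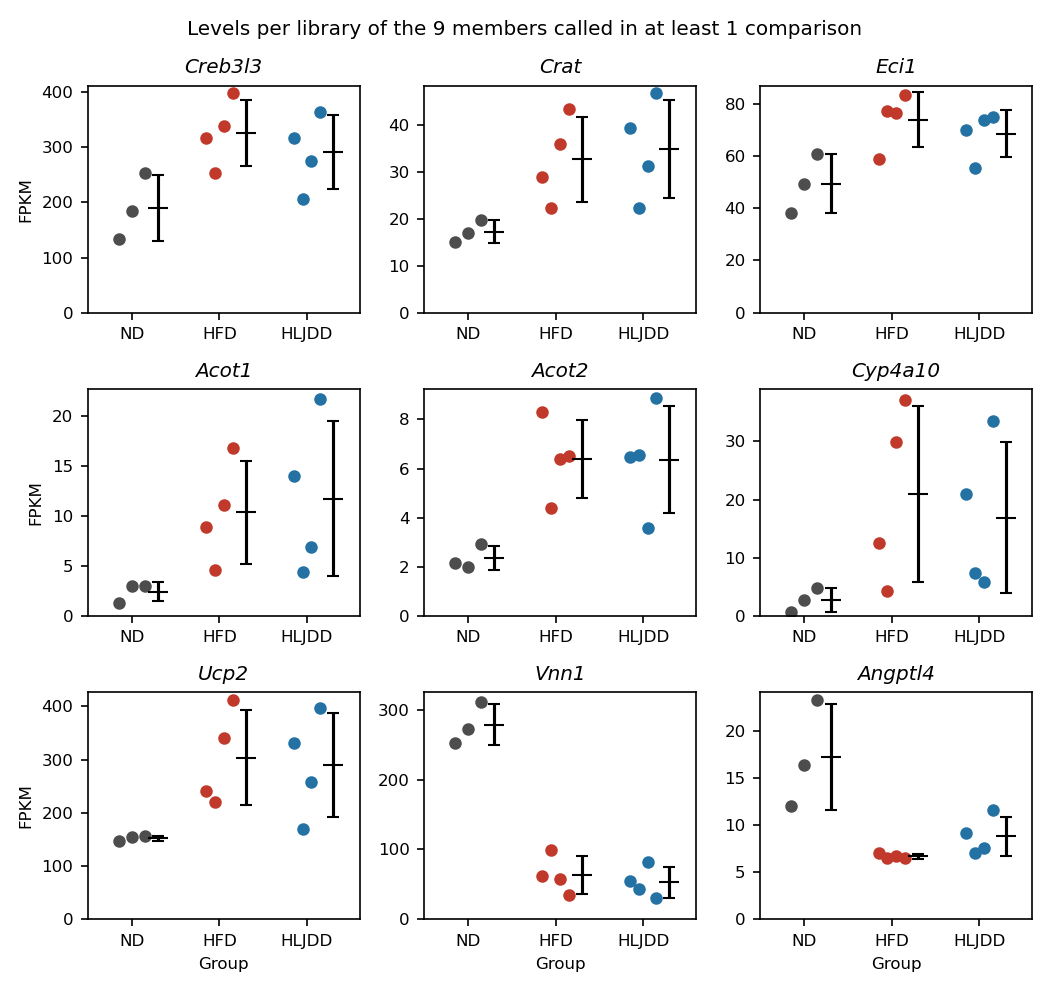
Each panel shows FPKM per library (points) with the group mean and SD (bar) for the 9 members called in at least 1 comparison. Vnn1 and Angptl4 are lower in all 8 HFD and HLJDD libraries than in ND, Acot1, Acot2, Crat and Ucp2 are higher in all 8, and Creb3l3, Eci1 and Cyp4a10 overlap ND in at least 1 of the groups.

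The calls of single rising members also changed when 1 library was left out. How often calls over all genes were lost in these fits is not given here. All 7 calls in HFD were lost without ND replicate 1 or without ND replicate 2 (for Acot2 at adjusted p = 0.0533 and 0.0578). Those of Acot1, Ucp2 and Crat were also lost without ND replicate 3. Those of Acot1, Ucp2, Crat, Cyp4a10, Creb3l3 and Eci1 were lost without HFD replicate 3 or without HFD replicate 4. Those of Acot1, Crat, Cyp4a10 and Creb3l3 were lost without HFD replicate 1, and that of Eci1 without HFD replicate 2 or HLJDD replicate 4. Those of Ucp2, Crat, Cyp4a10, Creb3l3 and Eci1 were lost without HLJDD replicate 1, and those of Crat, Creb3l3 and Eci1 without HLJDD replicate 3. In HLJDD the calls of Acot1, Acot2 and Crat were lost without ND replicate 1 or 2, those of Acot1 and Crat without ND replicate 3, HLJDD replicate 1 or HLJDD replicate 4, and that of Acot1 without HFD replicate 3 (adjusted p = 0.05).

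HLJDD was then compared with HFD. None of the 29 members passed by limma, at adjusted p of 0.999 to 1, and none had an unadjusted p under 0.05. Over all 10764 genes 0 passed (0% higher and 0% lower), with 186 (1.73%) at an unadjusted p under 0.05. With limma-voom on the recovered reads 0 genes passed, and 576 (5.35%) had an unadjusted p under 0.05. The members' log2 changes ran from -0.25 (Vnn1, 95% interval -0.94 to 0.45) to 0.33 (Angptl4, -0.08 to 0.75). All 29 intervals spanned 0, and 25 of them lay within -1 to 1. The widest was that of Cyp4a10 (-0.24, -1.69 to 1.21), so a 2-fold change in either direction lies inside it. No member had all HLJDD libraries on one side of all HFD libraries, beside 0.483% and 0.548% of all genes that did.

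Other genes of the pathway, 70 in 4 lists, were read beside the members. Of the 58 tested, HFD had 9 higher and 3 lower than ND, and HLJDD had 7 higher and 2 lower, beside the shares of all genes given above. None passed between HLJDD and HFD.

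Of the genes of ketone body metabolism, Acat1, the mitochondrial acetoacetyl-CoA thiolase, went from 32.9 ± 3.77 FPKM in ND to 68.9 ± 19.1 in HFD (log2 change 1.01, SE 0.29, adjusted p = 0.0338). Leaving out any 1 of ND replicate 1, 2 or 3 ended the call of Acat1 (adjusted p = 0.136, 0.105 and 0.059), and so did leaving out HFD replicate 1, 3 or 4 (0.0613, 0.0735 and 0.0663).

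Oxct1, which lets tissues burn ketone bodies, was read at 43.96, 36.7 and 22.2 FPKM in ND, 5.89, 14.8, 16.03 and 15.9 in HFD, and 20.8, 12.9, 20.9 and 19.4 in HLJDD. All HFD and HLJDD libraries lay below ND, where replicate 3 was the lowest. Oxct1 fell in HFD (log2 change -1.36, SE 0.33, adjusted p = 0.0163) and was not called in HLJDD (adjusted p = 0.119). Leaving out ND replicate 1 or 2 ended the call of Oxct1 (adjusted p = 0.092 and 0.0759).

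Of 26 genes in the list of other peroxisomal genes 24 were tested, and 4 rose in HFD (Acot12, Phyh, Acox2 and Ech1) and none fell. Acot12 encodes an acetyl-CoA thioesterase of the cytosol, although it was placed in this list. It went from 9.41 ± 6.59 FPKM in ND to 37.6 ± 9.83 in HFD and 34.6 ± 7.62 in HLJDD (log2 change 2.07, SE 0.38, adjusted p = 0.00408 and log2 change 1.96, SE 0.38, adjusted p = 0.00657). Acox2, an oxidase of branched chains and bile acid precursors, went from 4.24 ± 1.04 to 15.4 ± 7.82 and 14.7 ± 7.38. In HLJDD 3 of the 24 rose, Acot12, Acox2 and Ech1, the last at an adjusted p that rounds to 0.05. Of these, Acot12 was called in all 20 alternatives. Acox2 in HLJDD was not called when ND replicate 1, 2 or 3 was left out (adjusted p = 0.0892, 0.103 and 0.0991), when HLJDD replicate 1 or 4 was (0.0803 and 0.0946), with equal sums (0.055) or with no filter (0.0932). Ech1 in HLJDD was not called in 13 of 20 alternatives. These were leaving out ND replicate 1, 2 or 3 (0.222, 0.149 and 0.0529), HFD replicate 2 or 3 (0.0539 and 0.0771) or HLJDD replicate 1, 3 or 4 (0.112, 0.0654 and 0.145), equal sums (0.195), no filter (0.0835), a pseudocount of 0.1 (0.0507), only the 2 groups compared (0.0694) and the replicate block (0.101). The calls of Phyh, Acox2 and Ech1 in HFD were each lost without ND replicate 1 (adjusted p = 0.0998, 0.0681 and 0.14) or ND replicate 2 (0.0995, 0.0812 and 0.101). That of Phyh was also lost without HFD replicate 1 (0.0504), that of Acox2 without ND replicate 3 (0.0781) or HFD replicate 3 (0.0614), and that of Ech1 without HFD replicate 3 (0.0665) or HFD replicate 4 (0.0639). With no filter on low values Acat1, Oxct1, Phyh, Acox2 and Ech1 were not called in HFD, and with equal sums Acat1, Phyh and Ech1 were not.

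Of 15 other mitochondrial genes 12 were tested and 1 rose, the thioesterase Acot13, from 55.2 ± 6.42 FPKM in ND to 106 ± 15.6 in HFD (log2 change 0.92, SE 0.15, adjusted p = 0.00233). Of 22 other receptors, partners and targets 16 were tested, and 2 rose and 2 fell in HFD. Ppard, the receptor PPAR-delta that shares targets with PPAR-alpha, was read at 22.4, 25.4 and 26.1 FPKM in ND, 7.97, 9.67, 13.3 and 13.997 in HFD, and 15.2, 12.7, 15.5 and 13.5 in HLJDD. It fell in HFD (log2 change -1.10, SE 0.18, adjusted p = 0.00222) and in HLJDD (log2 change -0.75, SE 0.18, adjusted p = 0.0185), where leaving out ND replicate 1, 2 or 3 (adjusted p = 0.0524, 0.0844 and 0.0574) or HLJDD replicate 4 (0.0547) ended the call. Txnip, a glucose-responsive gene, fell in HFD (log2 change -0.62, SE 0.12, adjusted p = 0.00495) but was not called after scaling (adjusted p = 0.109) or with limma-voom (0.0958).

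Pparg, the receptor PPAR-gamma, was read at 2.401, 2.44 and 2.28 FPKM in ND, 7.67, 4.397, 6.32 and 9.18 in HFD, and 7.54, 5.34, 5.27 and 8.16 in HLJDD, and G0s2, an inhibitor of the triglyceride lipase ATGL, at 1.92, 0.647 and 0.894 FPKM in ND, 12.4, 3.83, 11.5 and 14.8 in HFD, and 10.97, 9.58, 6.47 and 17.1 in HLJDD. Both rose in HFD (log2 change 1.19 and 2.35, adjusted p = 0.00335 and 0.00255, limma) and in HLJDD (1.15 and 2.45, adjusted p = 0.00487 and 0.00236, limma), under every alternative run. Fat cells express both. The summed level of 9 adipocyte markers was 62.7 to 74.3 FPKM in ND, 94.9 to 152 in HFD and 184.5 to 260.3 in HLJDD, with 1 of 9 higher in HFD against ND and 6 of 9 in HLJDD against ND. Much of the HFD sum was Cidec. After scaling it stood at 10.4 to 30.7 FPKM in ND and 48.6 to 87.5 in HFD, within sums of 53.2 to 70.8 and 125 to 144. In HFD against ND, 8 of the 9 markers had a log2 change above 0 and 1 below. Adipoq, a defining marker, stood at 2.05, 1.73 and 1.16 FPKM in ND, 1.38, 8.22, 6.99 and 4.53 in HFD, and 13.3, 19.98, 15.2 and 7.17 in HLJDD, and no marker was at 0 in all libraries. Their part in these 2 results was not tested.

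Libraries of the same group also differed in the level of most members. In ND, 28 of 29 tested members were highest in replicate 3 (96.6%, against 54.4% of all genes after scaling), and 27 were lowest in replicate 1 (93.1%, against 49.6%). The exceptions were Acadl, which was highest in replicate 1 and lowest in replicate 3, and Acot2, lowest in replicate 2. As deposited, 32% of all genes were highest in replicate 3 and 39.2% lowest in replicate 1. ND replicate 3 was also the ND library with the lowest summed distal and the highest summed proximal markers. The part of region in this order was not tested. In HFD after scaling, 26 members were lowest in replicate 2 (89.7%, against 35.1% of all genes) and 21 highest in replicate 4 (72.4%, against 34.5%). In HLJDD 27 members were highest in replicate 4 (93.1%, against 32.1%). These counts describe single libraries, and genes are not independent.

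After scaling, the median member deviated from its group mean by -0.33, -0.03 and 0.36 on the log2 scale in ND replicates 1, 2 and 3, by 0.03, -0.47, 0.08 and 0.33 in HFD and by 0.07, -0.25, -0.21 and 0.37 in HLJDD. The median of all genes stayed between -0.04 and 0.05. The coefficient of variation within ND, as deposited, had a median of 20.6% over the members against 10.9% over all genes, 27.8% against 19.8% in HFD and 30.9% against 21.1% in HLJDD. Cyp4a10 varied most in each group (76.0%, 72.5% and 76.8%). Ucp2 varied least in ND (3.37%), Angptl4 in HFD (4.17%) and Eci1 in HLJDD (13.1%).

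**Figure D4:**
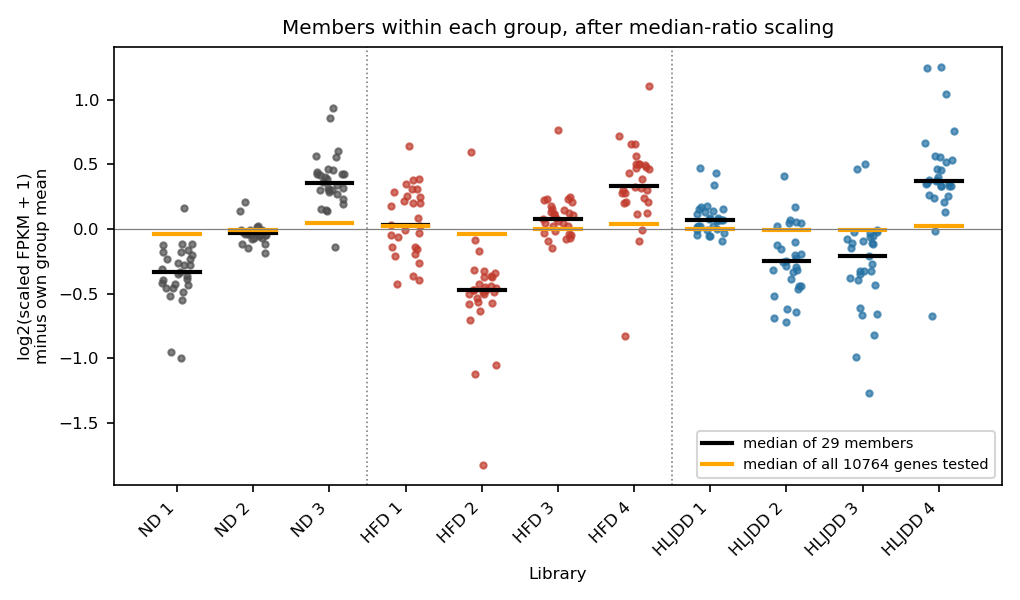
Each point is one of the 29 tested members, drawn as its log2(scaled FPKM + 1) minus the mean of its own group, by library, with the members' median in black and the median of all 10764 genes in orange. The members sit above the group mean in ND replicate 3, HFD replicate 4 and HLJDD replicate 4 and below it in ND replicate 1 and HFD replicate 2, while the orange bars stay within -0.04 to 0.05.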

How the data were processed

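Total RNA was extracted with TRIzol and libraries were made with a VAHTS kit, per the labels' protocols. The submitters' processing notes name fastp, HISAT2, HTSeq, R 3.2.0 and mm10. The sources used here state neither the annotation nor the strand setting. The authors deposited FPKM for 24294 symbols, with 0 differences between the single files and the series table. Without strand, overlapping and antisense genes cannot be separated.

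Whole reads were recovered from the FPKM steps for 24292 symbols (tolerance 0.002 reads, from 30.1 to 37.9 reads per kilobase at 1 FPKM) and used for depth and for limma-voom. The 10764 genes that reached 1 FPKM in 3 or more libraries were tested with limma 3.58.1 in R 4.3.3 on log2(FPKM + 1), with the trend option, 1 model for the 11 libraries, and two-sided p-values adjusted by Benjamini-Hochberg over all genes (threshold 0.05). Fold changes on this scale understate those of low genes. The fit was also run on simulated data, with independent genes, 1 fixed spread and no shifts shared by genes of a library. That run therefore does not cover the shared shifts within groups described above. Positions and promoters come from RefSeq (GRCm38.p6), transcripts from GENCODE M21.

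Members and lists were chosen with earlier results of these data known. Values per library are given for members called in at least 1 comparison and for Ppara, Cpt1a and Fgf21. Other members with such values (Acaa2, Pdk4, Ehhadh, Acaa1b) were chosen after their values were seen. Of each other list, up to 4 called genes with the lowest adjusted p were taken. Values per library of other genes were added by choice. Some genes of the lists are not reported here. The alternatives were a pseudocount of 0.1, a mean of 5 FPKM or no filter, scaling to equal sums, median-ratio scaling, only the groups compared, a replicate block, limma-voom, and leaving out libraries.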

Additional observations from a re-analysis of the deposited data

Results flagged for a closer look

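In HLJDD replicate 2, as deposited, 2 members stood far below the other 3 libraries of the group, by a gap that exceeded Dixon's 95% limit for 4 samples. Acaa1a was at 83.88 FPKM there (156 to 162 in the others) and Acadm at 61.04 FPKM (93.7 to 99.7). As deposited, 77.9% of all genes were lowest in this library within HLJDD. After median-ratio scaling Acadm stood at 79.2 FPKM there, close to the next lowest library, HLJDD replicate 3, at 81.9. Acaa1a then stood at 108.8 FPKM, beside 135.7 to 162.3 in the others. HLJDD replicate 2 is the library with the highest mitochondrial share (40.7%). Its part in these values was not tested. The rule was applied to 58 groups of values, and chance flags about 1 group in 20.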

How the results depend on the processing

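The counts of members called were recomputed under 20 alternatives, 11 of them leaving out 1 library. The share of all genes called is not given here for the fits without 1 library or for the replicate block. The count of members that rose in HFD (7) was 12 with limma-voom, 11 after median-ratio scaling, 4 with the replicate number as a block, 1 with no filter on low values, 1 with scaling to equal sums, and 0 to 10 when 1 library was left out. The count that rose in HLJDD against ND (3) was 7 with limma-voom, 7 after median-ratio scaling, 1 with no filter, 10 without both libraries of highest mitochondrial share, and 0 to 9 when 1 library was left out. The count that fell there (2) was 1 after median-ratio scaling and 1 to 2 when 1 library was left out. The count that fell in HFD (2) and both counts between HLJDD and HFD (0) were the same in all alternatives.

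In HFD against ND, the log2 changes of Acadvl, Acadm and Hadhb turned positive with median-ratio scaling (0.24, 0.24 and 0.24), limma-voom (0.22, 0.23 and 0.23) and without the 2 libraries of highest mitochondrial share (0.14, 0.1 and 0.08), and leaving out 1 library gave -0.2 to 0.14 for Acadvl, -0.13 to 0.1 for Acadm and -0.17 to 0.14 for Hadhb. For Cyp4a10 in HLJDD against HFD leaving out 1 library gave -0.8 to 0.15. The cause was not tested. Same-numbered libraries of different groups correlated from -0.219 to 0.366 in their deviations from the group means, and differently numbered ones from -0.619 to 0.495. The same-numbered pairs thus did not stand out. Whether the replicate numbers pair the libraries cannot be decided from these ranges, since the deviations may have other sources. With the block, Cyp4a10 (adjusted p = 0.0626), Creb3l3 (0.07) and Eci1 (0.0789) were not called in HFD. The ND group of 3 libraries, 2 in some alternatives, limits what was detectable.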
